A study of Homo sapiens with 4 samples.

Results

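Interferon response genes are the antiviral and immune genes that cells switch on when interferon binds its receptors. 37 such genes were chosen by gene symbol, and where a gene had several probe sets the brightest on average stood for it. 36 of the 37 had a probe set with 1 symbol, among 19775 genes in all; STAT2 was not analysed here. The samples were human neuroendocrine tumour cell lines treated with siRNA against DAXX, a chaperone of histone variant H3.3, and the arrays were made to find the genes whose expression differs after its knockdown. Each sample was run on 1 one-colour Affymetrix array.

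The 4 groups, with 1 array each, were NCI-H727 (bronchial) with DAXX siRNA (DAXX-KD), NCI-H727 with negative control siRNA, QGP1 (pancreatic) with DAXX siRNA, and QGP1 with negative control siRNA. Controls as well as knockdown cells were therefore electroporated with siRNA, at a final 50 nM. 2 DAXX siRNAs are named and pooling is not stated. No array was repeated, and nothing says that the arrays of a line came from separate experiments. The line names follow the sample titles, since the source field calls the NCI-H727 samples QGP1. The description field calls all 4 samples ALDH high QGP1 cells.

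Values are log2 expression from RMA, a method that equalises the distribution of the arrays, so they are relative to the other genes of an array. Array medians lay between 5.31 and 5.36. A gene passed the filter where its mean over the 4 arrays reached 4.85, the 40th percentile of all probe sets, and differences below that level are compressed. DAXX was 2.31-fold lower in DAXX-KD than in control cells of NCI-H727 and 3.90-fold lower in QGP1, and 1.78-fold and 4.41-fold lower at its second probe set in NCI-H727 and QGP1. 10 of 10 neuroendocrine markers passed the filter, and CHGA, the granule protein chromogranin A, read 11.14 or more in all 4 arrays. Markers of the organ of origin were mixed, with lung markers against the titles. NKX2-1, the lung and thyroid transcription factor, read 3.23 and 3.35 in DAXX-KD and control NCI-H727, against 8.38 and 8.77 in QGP1, although its second probe set lay between 5.59 and 5.95 in all 4 arrays. The lung peptide GRP read 4.12 and 5.37 in DAXX-KD and control NCI-H727, against 11.76 and 12.80 in QGP1. CALCA, the calcitonin gene and the other lung marker measured, was not called (-0.23). Of 4 islet markers, NKX2-2 was higher in NCI-H727, PAX6 and ISL1 were lower, and PDX1 was not called. QGP1 and NCI-H727 below mean the arrays so titled; if the titles of the lines were crossed, every difference between lines would turn its sign, while the knockdown differences would stay with their pair of arrays.

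Interferon genes are organised as a relay. Sensors such as RIGI and IFIH1 detect viral RNA and trigger interferon production. Secreted interferon then acts through receptors, JAK kinases and STAT proteins, and a complex that includes IRF9 binds a DNA element, the interferon-stimulated response element, in the promoters of the effector genes. Interferon gamma works mainly through another element, the gamma-activated site. DAXX is itself an interferon-induced protein of PML nuclear bodies.

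Promoters of members on both sides of the difference between lines held the core of the interferon-stimulated response element. RefSeq promoter windows (GRCh38.p14, 250 bases before to 50 after a start site) were found for 32 of the 37 members. The core of the interferon-stimulated response element, searched as GAAA, any 2 bases and GAAA again on both strands with overlaps counted, occurred in 23 of the 32 genes (71.9%), against 4.38% of all 27305 genes with a window. Counted by window, 64.3% of 42 windows held it, against 3.57% of all 35116 windows of the same length. It was found in 8 of 10 members that were higher in NCI-H727, in 4 of 6 that were lower and in 11 of 15 measured members that were not called. The core of the gamma-activated site, searched as TTC, any 3 bases and GAA, which reads the same on both strands, occurred in 10 of the 32 genes (31.2%), against 9.38% of all genes. This core was found in 3 of 10 members that were higher in NCI-H727, in 1 of 6 that were lower and in 6 of 15 that were not called. A match is a run of letters and does not show that a factor binds there.

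The 180 bases before the start site are shown for 5 members that were higher in NCI-H727, with matches to either core in capitals, because they include the widest differences between lines (BST2 and GBP1) and 3 of the 4 members furthest apart after knockdown in QGP1 (DDX60L, GBP1 and IFIH1).
BST2, chr19:17405631-17405810, minus strand: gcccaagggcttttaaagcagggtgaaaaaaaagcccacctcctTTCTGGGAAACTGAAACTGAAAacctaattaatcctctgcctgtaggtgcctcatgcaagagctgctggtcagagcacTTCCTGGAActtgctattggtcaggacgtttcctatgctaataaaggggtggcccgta
GBP1, chr1:89065209-89065388, minus strand: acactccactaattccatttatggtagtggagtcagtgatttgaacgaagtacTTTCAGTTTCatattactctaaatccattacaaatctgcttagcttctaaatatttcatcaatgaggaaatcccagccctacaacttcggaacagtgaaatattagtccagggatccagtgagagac
IFIH1, chr2:162318685-162318864, minus strand: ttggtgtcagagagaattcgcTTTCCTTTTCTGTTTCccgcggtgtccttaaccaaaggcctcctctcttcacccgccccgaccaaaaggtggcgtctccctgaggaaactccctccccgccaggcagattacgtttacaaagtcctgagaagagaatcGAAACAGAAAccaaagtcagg
DDX60L, chr4:168480493-168480672, minus strand: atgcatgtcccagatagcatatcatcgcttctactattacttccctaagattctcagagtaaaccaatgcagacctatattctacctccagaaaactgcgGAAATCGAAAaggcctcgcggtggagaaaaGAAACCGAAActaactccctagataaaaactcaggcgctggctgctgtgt
OAS1, chr12:112906782-112906961, plus strand: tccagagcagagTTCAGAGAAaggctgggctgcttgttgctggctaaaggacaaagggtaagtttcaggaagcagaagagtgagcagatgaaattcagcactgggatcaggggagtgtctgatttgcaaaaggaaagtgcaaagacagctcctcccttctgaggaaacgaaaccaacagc

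The same stretch is shown for 3 members that were lower in NCI-H727, and these hold the same core.
ISG15, chr1:1013317-1013496, plus strand: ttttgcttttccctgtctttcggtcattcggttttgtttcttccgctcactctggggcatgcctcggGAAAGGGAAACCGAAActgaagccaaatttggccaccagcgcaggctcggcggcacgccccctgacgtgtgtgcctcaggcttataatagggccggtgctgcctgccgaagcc
IFIT3, chr10:89327817-89327996, plus strand: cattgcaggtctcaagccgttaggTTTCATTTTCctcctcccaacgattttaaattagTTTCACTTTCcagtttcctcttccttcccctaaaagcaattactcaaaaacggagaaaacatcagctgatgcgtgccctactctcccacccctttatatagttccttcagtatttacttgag
SAMD9, chr7:93117980-93118159, minus strand: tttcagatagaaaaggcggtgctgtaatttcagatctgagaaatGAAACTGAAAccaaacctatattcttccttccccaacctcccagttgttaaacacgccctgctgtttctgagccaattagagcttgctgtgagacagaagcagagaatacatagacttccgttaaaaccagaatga

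With positions counted from the start site, the BST2 stretch holds overlapping response element cores that begin at -130 and -124. A gamma-activated core that begins at -136 runs into them, and another begins at -58. The single GBP1 core begins at -127, in the opposite orientation. ISG15, on the lower side, carries overlapping cores in a similar place, at -113 and -107. OAS1 has 1 gamma-activated core in this window and no match to the response element core as searched. Near its end the OAS1 stretch holds GAAA, 1 base and GAAA again, a shorter spacing that the search did not allow. The lack of a match therefore does not show that OAS1 lacks the element.

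**Figure D1:**
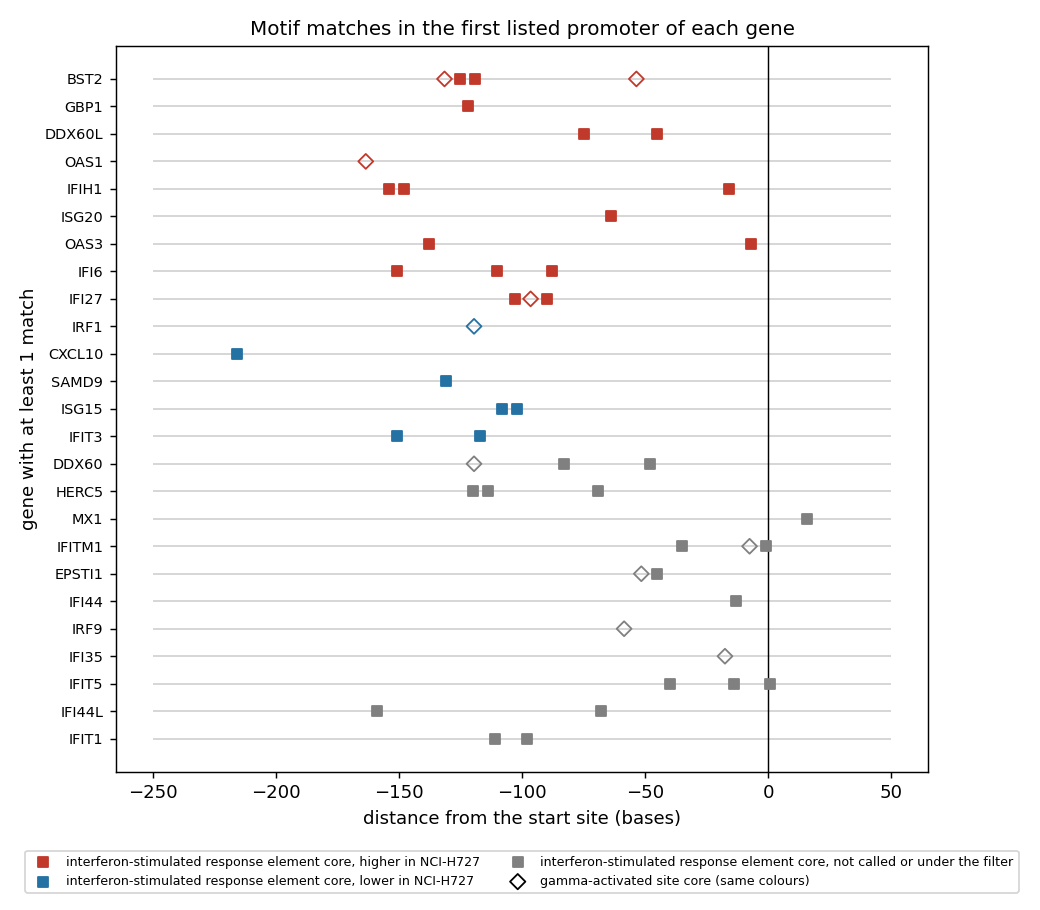
Matches to the response element core (squares) and the gamma-activated core (open diamonds) in the first listed promoter window of the 25 measured members with at least 1 match, by distance from the start site in bases (x axis, match centre). Red genes were higher in NCI-H727 than in QGP1, blue genes lower, and grey genes not called or under the filter; squares lie in all 3 classes.

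Between the lines the interferon genes did not shift as a block. 27 of the 36 measured members passed the filter, 18 of them differed between NCI-H727 and QGP1 in the limma fit, 11 higher and 7 lower in NCI-H727, and 9 were not called. The share called was 66.7%, where 48.3% of all 14648 genes past the filter were called, and the median difference was 0.14, against 0.05 over all genes. 12 of the 27 members (44.4%) were at least 2-fold apart, against 22.5% of all genes. The median size of the difference, whatever its sign, was 0.89 for the members and 0.43 for all genes. The fit rests on 2 arrays per line that differ in treatment, with 1 residual degree of freedom, so its errors take as noise how far the knockdown difference varied between the lines. In 4 of the 27 (BST2, GBP1, DDX60L and OAS2) the mean of the NCI-H727 arrays reached the filter level and that of the QGP1 arrays did not, and a member of that kind is favoured to be higher in NCI-H727. With no filter 12 of 36 members were higher and 7 lower, where 36.2% of all 19775 genes were called.

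**Figure D2:**
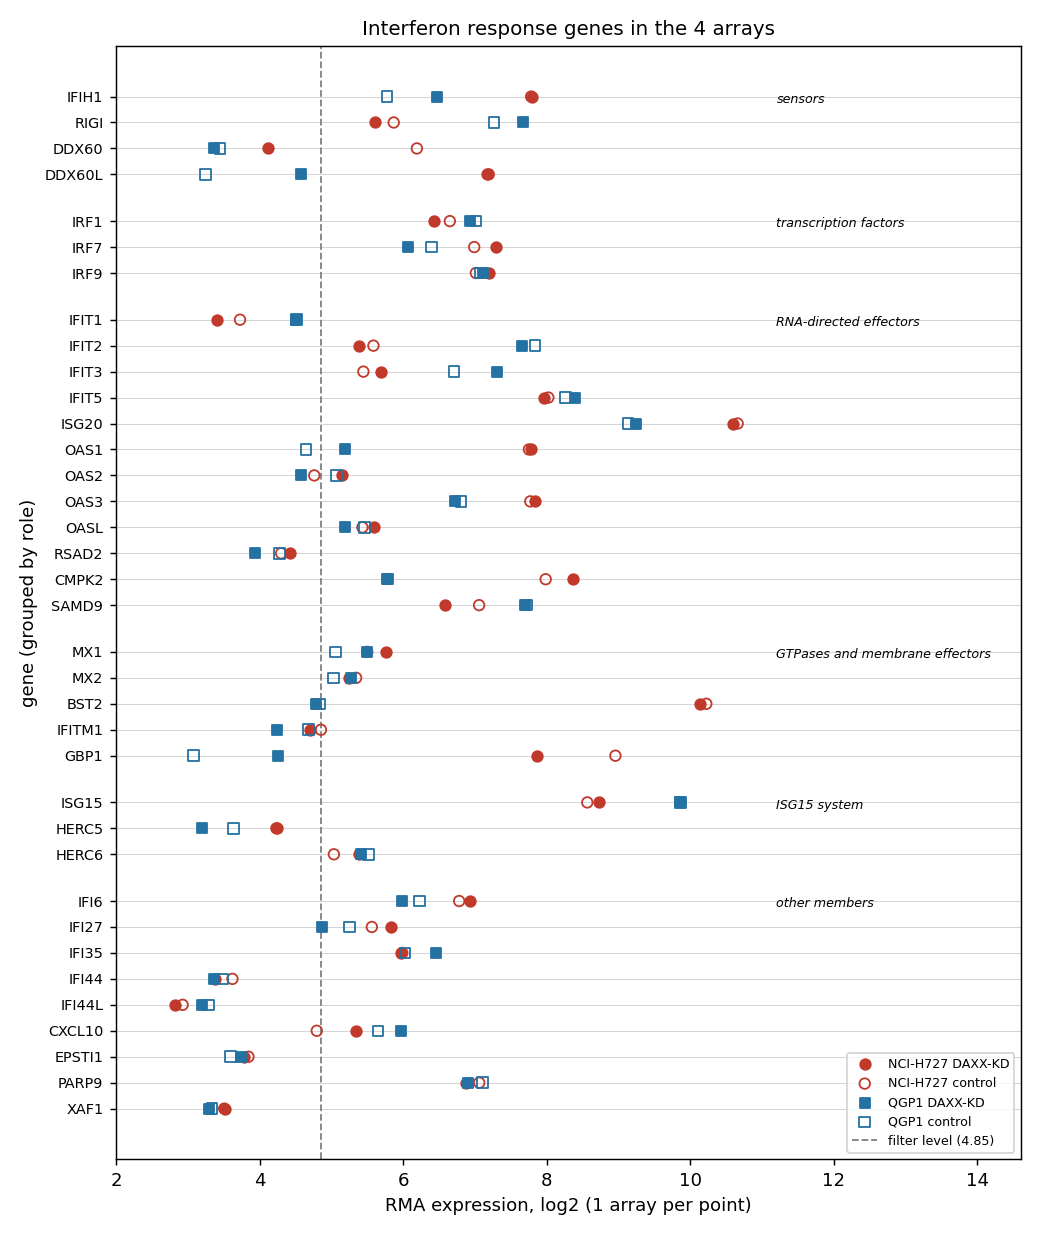
RMA expression on the log2 scale (x axis) of the 36 measured members in each array, grouped by role; red circles are NCI-H727 and blue squares QGP1, filled for DAXX-KD and open for control. The dashed line is the filter level of 4.85. The widest gaps between colours are those of BST2 and GBP1, and the gaps between filled and open symbols are mostly narrower.

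Cytosolic RNA sensors went in opposite directions. IFIH1 (MDA5, the sensor of long double-stranded RNA) read 7.79 and 7.78 in DAXX-KD and control NCI-H727, against 6.47 and 5.78 in QGP1. It was 3.16-fold higher in NCI-H727 (log2 difference 1.66, SE 0.20, adjusted p = 0.00197 in limma). RIGI, the sensor of short RNA ends with a triphosphate, read 5.60 and 5.87 in DAXX-KD and control NCI-H727, against 7.67 and 7.27 in QGP1. It was 3.32-fold lower in NCI-H727 (-1.73, SE 0.19, adjusted p = 0.00158 in limma). In both genes the arrays of one line lay wholly above those of the other. A second RIGI probe set differed by -1.94 and the third, with the x_at suffix that marks possible binding of other transcripts, by 0.41. The probe set that stood for RIGI has such a suffix as well, s_at, and the second has none. The other probe sets of IFIH1 were under the filter and differed by -0.78 and -0.34, and with the mean of its probe sets IFIH1 was not called (0.18, adjusted p = 0.284 in limma).

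DDX60 and DDX60L are helicase genes that lie next to each other on chromosome 4, and DDX60 has been reported to promote RIG-I-like receptor signalling. DDX60L read 7.17 and 7.19 in DAXX-KD and control NCI-H727, against 4.57 and 3.25 in QGP1, both of the last under the filter level (log2 difference 3.27, SE 0.32, adjusted p = 0.00105 in limma). Its second probe set, under the filter, differed by 0.25. DDX60 had a mean under the filter and only the control array of NCI-H727, at 6.19, lay above the level; it read 4.12 in DAXX-KD NCI-H727 and 3.36 and 3.45 in DAXX-KD and control QGP1.

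Of the transcription factors, IRF7, the inducer of interferon alpha genes, read 7.29 and 6.99 in DAXX-KD and control NCI-H727, against 6.07 and 6.40 in QGP1. It was 1.87-fold higher in NCI-H727 (0.90, SE 0.19, adjusted p = 0.0125 in limma), a call lost without the QGP1 DAXX-KD array (0.74, adjusted p = 0.0589 in limma). IRF1, which drives part of the interferon gamma program, read 6.43 and 6.65 in DAXX-KD and control NCI-H727, against 6.93 and 7.02 in QGP1 (-0.43, SE 0.13, adjusted p = 0.0422 in limma). IRF1 lay near the threshold and was not called under 7 of the alternatives (adjusted p = 0.0511 to 0.198 in limma), among them those without the NCI-H727 DAXX-KD, the QGP1 DAXX-KD and the QGP1 control array. IRF9, the subunit that recognises the response element, was at 7.01 to 7.20 in all 4 arrays and was not called (0.01, SE 0.13).

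The IFIT genes, which form a cluster on chromosome 10 and encode proteins that bind foreign RNA, leaned to lower values in NCI-H727. IFIT2 read 5.38 and 5.59 in DAXX-KD and control NCI-H727, against 7.65 and 7.83 in QGP1. It was 4.79-fold lower in NCI-H727 (-2.26, SE 0.13, adjusted p = 0.000161 in limma), the lowest of the 27 members. Its neighbour IFIT3 read 5.69 and 5.45 in DAXX-KD and control NCI-H727, against 7.31 and 6.71 in QGP1 (-1.44, SE 0.15, adjusted p = 0.00123 in limma). The second probe sets of these genes differed by -0.82 and -0.51, the same way by less. IFIT5 differed by -0.34 (SE 0.13) and was not called (adjusted p = 0.0929 in limma), with -0.78 at its second probe set. IFIT1, commonly the strongest induced of the family, was under the filter in all 4 arrays, between 3.41 and 4.52.

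The OAS genes, a cluster on chromosome 12 whose enzymes make the 2′-5′ oligoadenylates that activate RNase L, leaned the other way. OAS1 read 7.79 and 7.75 in DAXX-KD and control NCI-H727, against 5.19 and 4.65 in QGP1. It was higher in NCI-H727 (log2 difference 2.85, SE 0.17, adjusted p = 0.000195 in limma), with the QGP1 control under the filter level, and its second probe set differed by 0.90. OAS3, next to it, read 7.83 and 7.77 in DAXX-KD and control NCI-H727, against 6.72 and 6.81 in QGP1. It was 2.05-fold higher (1.04, SE 0.13, adjusted p = 0.00238 in limma), while a second probe set differed by 0.05. OAS2, the next gene along, lay between 4.58 and 5.14 in all 4 arrays and differed by 0.13 (SE 0.23, not called). The related OASL, which lacks the enzyme activity, differed by 0.19 (SE 0.16, not called).

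Among the other RNA- and nucleotide-directed effectors, CMPK2, a nucleotide kinase of mitochondria, read 8.36 and 7.99 in DAXX-KD and control NCI-H727, against 5.78 and 5.77 in QGP1. It was 5.27-fold higher in NCI-H727 (2.40, SE 0.15, adjusted p = 0.000236 in limma). RSAD2 (viperin), the gene next to CMPK2 and usually induced with it, was under the filter in all 4 arrays, between 3.93 and 4.42. The exonuclease ISG20 read 10.59 and 10.66 in DAXX-KD and control NCI-H727, against 9.24 and 9.13 in QGP1 (1.44, SE 0.13, adjusted p = 0.000856 in limma), and its second probe set differed by 1.49. SAMD9, an antiviral restriction factor, read 6.58 and 7.06 in DAXX-KD and control NCI-H727, against 7.70 and 7.72 in QGP1. It was 1.85-fold lower in NCI-H727 (-0.89, SE 0.16, adjusted p = 0.00796 in limma), and lower at its second probe set too (-0.59). The SAMD9 call was lost without the QGP1 DAXX-KD or the QGP1 control array (adjusted p = 0.0595 and 0.0632 in limma).

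The widest differences among the members belonged to a membrane tether and a GTPase. BST2 (tetherin), which holds budding virions on the cell surface, read 10.14 and 10.22 in DAXX-KD and control NCI-H727, against 4.78 and 4.84 in QGP1 (5.37, SE 0.13, adjusted p = 1.77e-05 in limma). A fold is not given, because both QGP1 values lay under the filter level. GBP1, an interferon gamma-induced GTPase that coats intracellular pathogens, read 7.87 and 8.96 in DAXX-KD and control NCI-H727, against 4.25 and 3.08 in QGP1 (4.75, SE 0.51, adjusted p = 0.00143 in limma). 2 other GBP1 probe sets past the filter differed by 5.72 and 5.82, and a dim one by -0.15. The dynamin-like GTPases MX1 and MX2, neighbours on chromosome 21, were not called (0.35, SE 0.13 and 0.14, SE 0.15). IFITM1, which blocks viral entry, had a mean under the filter, with values from 4.24 to 4.85.

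ISG15, an interferon-induced ubiquitin-like modifier that enzymes attach to other proteins, read 8.72 and 8.56 in DAXX-KD and control NCI-H727, against 9.86 and 9.86 in QGP1. It was 2.33-fold lower in NCI-H727 (-1.22, SE 0.13, adjusted p = 0.00142 in limma). HERC5, its main ligase in human cells, was under the filter in all 4 arrays (3.19 to 4.24), and HERC6, the gene beside it, was not called (-0.25, SE 0.16).

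Of the remaining members, IFI6, a mitochondrial and endoplasmic reticulum protein, read 6.93 and 6.78 in DAXX-KD and control NCI-H727, against 5.99 and 6.23 in QGP1 (0.75, SE 0.15, adjusted p = 0.0124 in limma). IFI27, of the same family, read 5.82 and 5.56 in DAXX-KD and control NCI-H727, against 4.87 and 5.25 in QGP1 (0.63, SE 0.19, adjusted p = 0.0422 in limma). IFI27 was not called with no filter, nor without the NCI-H727 DAXX-KD or the QGP1 DAXX-KD array (adjusted p = 0.0591 to 0.175 in limma). The IFI6 call was lost without the QGP1 DAXX-KD array (0.63, adjusted p = 0.0639 in limma). The chemokine CXCL10, which attracts T cells, read 5.34 and 4.80 in DAXX-KD and control NCI-H727, against 5.96 and 5.65 in QGP1 (-0.74, SE 0.14, adjusted p = 0.00853 in limma). It was not called when the NCI-H727 control, the QGP1 DAXX-KD or the QGP1 control array was left out (adjusted p = 0.0725 to 0.189 in limma). PARP9 (-0.04, SE 0.13) and IFI35 (-0.27, SE 0.16) were not called. IFI44, IFI44L, EPSTI1 and XAF1 were under the filter in all 4 arrays, at values from 2.82 to 3.84.

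**Figure D3:**
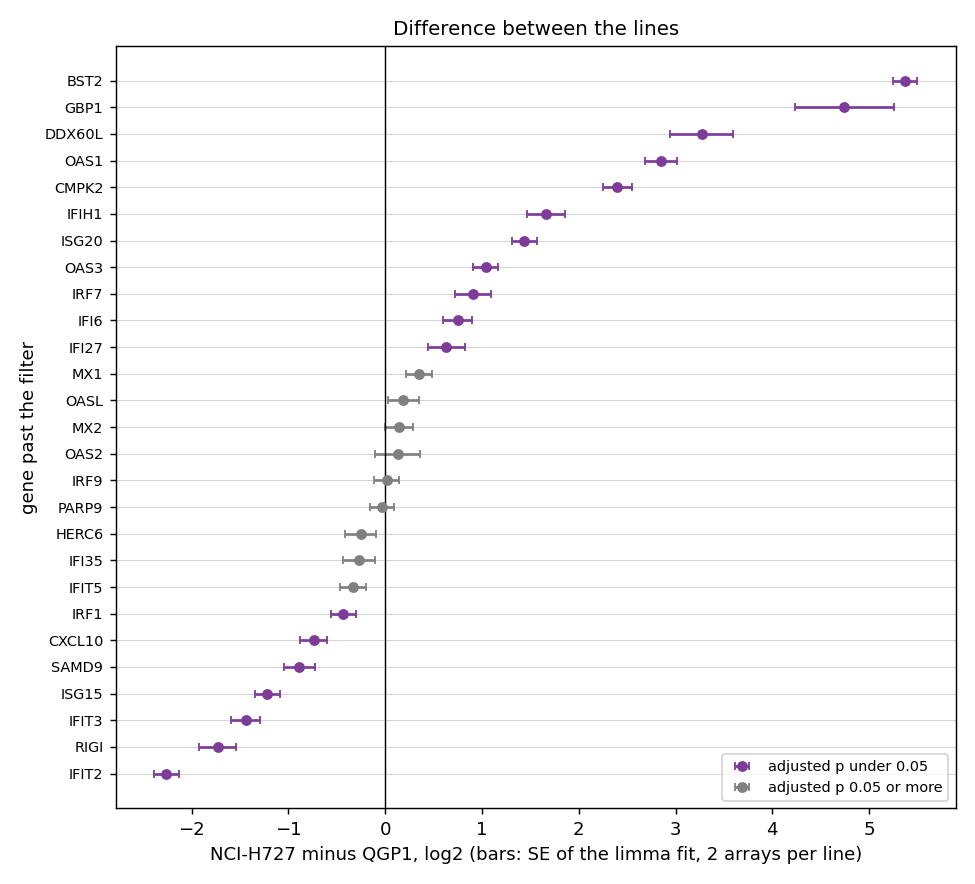
Log2 difference NCI-H727 minus QGP1 (x axis) of the 27 members past the filter, with bars for the SE of the limma fit over 2 arrays per line; purple points had an adjusted p under 0.05. The points run from -2.26 for IFIT2 to 5.37 for BST2, with 9 grey points around 0.

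12 members had more than 1 probe set past the filter. In 10 of the 12 these probe sets gave the difference between lines the same sign, with RIGI and OASL as the exceptions. The probe sets that stood for OAS1, IRF7 and ISG15 also have the s_at suffix, and IRF7 and ISG15 had no other. 11 of the 18 called members were also called under each alternative that kept them, and the other 7 were CXCL10, IFI27, IFI6, IFIH1, IRF1, IRF7 and SAMD9.

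After DAXX knockdown the interferon genes differed from their controls in both directions, with medians near 0 and the widest differences in GBP1, DDX60 and DDX60L. In NCI-H727 the median DAXX-KD minus control difference of the 27 members was 0.04, against 0.02 over all genes, and 25 of the 27 differed by less than 0.5 on the log2 scale, as did 13210 of all 14648 genes. The median size of the difference, whatever its sign, was 0.18 for the members and 0.17 for all genes. In QGP1 the median was 0.01, against 0.02 over all genes, and 22 of the 27 differed by less than 0.5, as did 13935 of all 14648 genes. The median size there was 0.25 for the members and 0.13 for all genes. With 1 array per condition there is no test within a line. Between probe sets of the same gene the knockdown difference varied with an SD of 0.28 in NCI-H727 and 0.20 in QGP1, which is a scale for these differences but holds no error between cultures. The knockdown differences had the same sign at all probe sets past the filter in 7 of 12 members in NCI-H727 and 4 of 12 in QGP1.

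1 of the 27 members was at least 2-fold lower in DAXX-KD than in control NCI-H727, and 0 were 2-fold higher; over all genes 1.32% were 2-fold lower and 0.177% higher. At 1.5-fold the counts were the same, 1 lower and 0 higher, where 4.96% of all genes were lower and 1.6% higher. This member was GBP1, at 7.87 in DAXX-KD and 8.96 in control NCI-H727, 2.13-fold lower. Its other probe sets past the filter were lower too, by 1.14 and 0.54 on the log2 scale. The counts hold for the probe sets that stood for the genes. Second probe sets past the filter differed by -0.66 for IFIT5 and -0.58 for OAS1, where the first gave -0.06 and 0.04. In the other direction the furthest second probe set past the filter was that of OAS3, at 0.38. DDX60, left out by the filter, was lower as well, at 4.12 in DAXX-KD and 6.19 in control NCI-H727; its 1 probe set has a suffix that marks possible binding of other transcripts, and no fold is given because the first value lay under the filter level. It was the lowest of the 36 members, and with no filter 2 of 36 were 2-fold lower, where 1.05% of all 19775 genes were. The neighbouring DDX60L did not follow it, at 7.17 in DAXX-KD and 7.19 in control NCI-H727.

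In QGP1, 2 of the 27 members were at least 2-fold higher in DAXX-KD than in control cells and 0 were lower, where 0.259% of all genes were 2-fold higher and 0.232% lower. They were DDX60L, at 4.57 in DAXX-KD and 3.25 in control QGP1, and GBP1, at 4.25 and 3.08. All these values lay under the filter level, and the genes passed the filter through NCI-H727. Both probe sets have a suffix that marks possible binding of other transcripts, x_at for GBP1 and s_at for DDX60L. The other probe sets past the filter gave GBP1 in QGP1 differences of -0.34 and -0.52, so its direction depended on the probe set; the second DDX60L probe set differed by 0.36. At 1.5-fold, 4 of 27 were higher and 0 lower, where 1.74% of all genes were higher and 1.32% lower. The added members were IFIH1, at 6.47 in DAXX-KD and 5.78 in control QGP1 (1.62-fold), and IFIT3, at 7.31 in DAXX-KD and 6.71 in control QGP1 (1.52-fold). The second IFIT3 probe set differed by -0.05. The other IFIH1 probe sets, under the filter, differed by -0.03 and -0.14, and the mean of all its probe sets by 0.18. In NCI-H727 IFIH1 differed by 0.01 and IFIT3 by 0.25, so these differences were set side by side and not tested against each other.

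**Figure D4:**
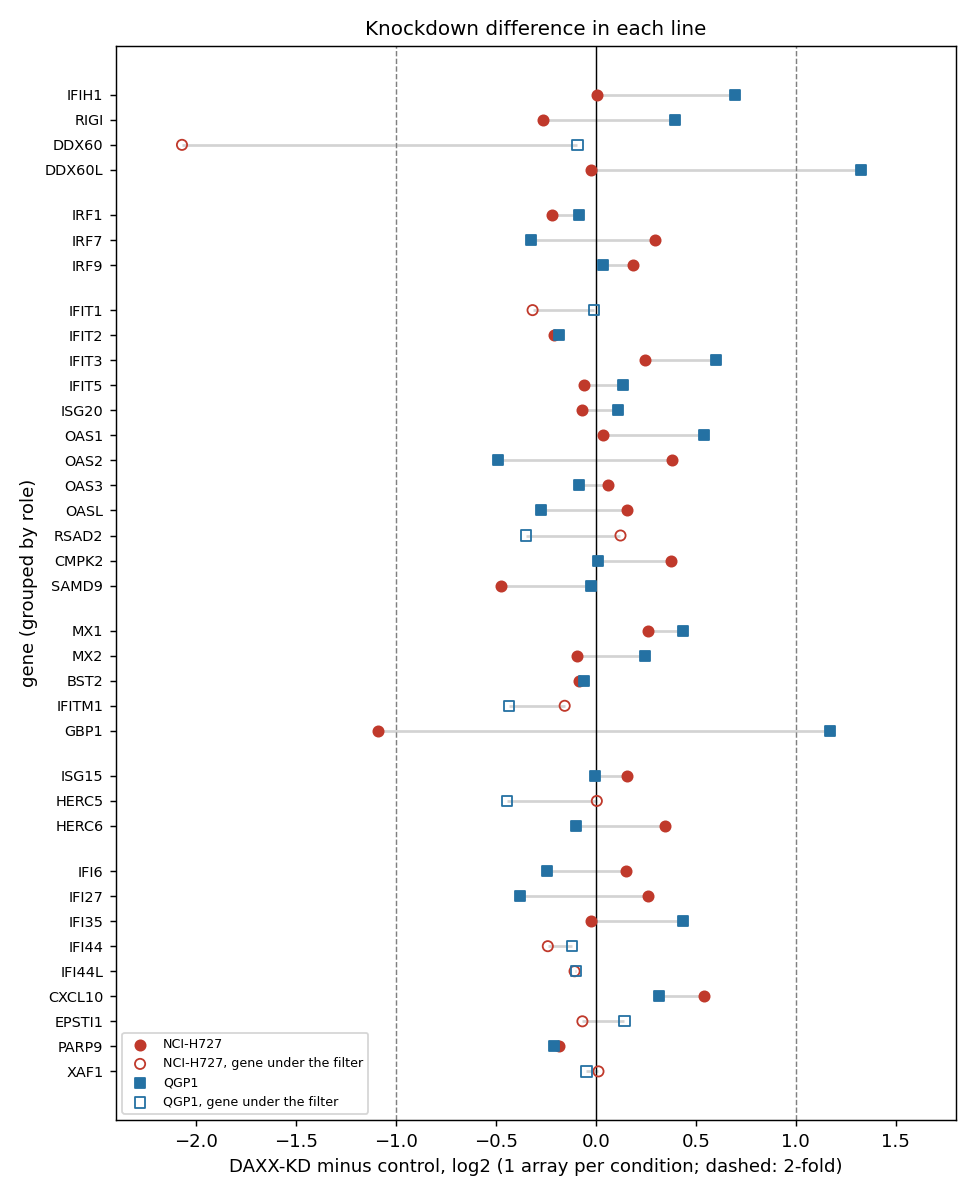
DAXX-KD minus control difference on the log2 scale (x axis) of the 36 measured members, in NCI-H727 (red circles) and QGP1 (blue squares), 1 array per condition; open symbols are genes under the filter and dashed lines mark 2-fold. Most points lie between -0.5 and 0.5, DDX60 lies at -2.07 in NCI-H727, and GBP1 lies past 2-fold on both sides.

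Taking the lines as the only repeats of the knockdown, the limma fit over all 4 arrays called 0 of the 27 members, and 0% of all genes, at an adjusted p under 0.05. At an unadjusted p under 0.05 there were 3 members, where 6.92% of all genes passed. In limma they were CXCL10 (0.43, SE 0.14, adjusted p = 0.639), IFIT3 (0.42, SE 0.15, adjusted p = 0.673) and MX1 (0.35, SE 0.13, adjusted p = 0.708). Each was higher in 2 of 2 lines, but choosing by this p-value favours that, since the fit takes disagreement between the lines as noise. MX1, a GTPase that blocks nucleocapsids and a common readout of interferon, read 5.76 in DAXX-KD and 5.50 in control NCI-H727, and 5.50 in DAXX-KD and 5.06 in control QGP1. 12 of 27 members (44.4%) had the same sign in both lines, against 51.4% of all genes. Over the 27 members the differences of the lines had a Pearson r of -0.40 and a Spearman rho of -0.25, against 0.19 and 0.07 over all genes. These describe genes of the same 4 arrays and are not independent repeats. The Pearson r leans on GBP1, the most opposed member, at -1.09 in NCI-H727 and 1.17 in QGP1. Both QGP1 arrays of GBP1 lay under the filter level, and its other probe sets past the filter gave -0.34 and -0.52 there. The r was not computed without GBP1, so it does not show an opposite response of the members as a set.

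The rest of the pathway gave the members their setting. Of 18 measured interferon genes 17 were under the filter, and IFNB1, the first interferon made on infection, lay between 3.44 and 4.10 in all 4 arrays. IFNA17 was the 1 ligand past the filter, at 4.92 to 5.51, with an x_at probe set in a family of near-identical genes, and was not called. Of 10 measured receptor and signalling genes 9 passed the filter and the kinase JAK2 did not; 2 of the 9 were higher and 2 lower in NCI-H727, 44.4% called beside the 48.3% of all genes. The receptor chain IFNAR1 differed by -0.79 (SE 0.13, adjusted p = 0.00549 in limma) and its partner IFNAR2 by 0.74 (SE 0.14, adjusted p = 0.00967 in limma). IFNLR1, the receptor of interferon lambda, was higher in NCI-H727 (0.73) and STAT3 was lower (-1.69). The kinases JAK1 (-0.15) and TYK2 (-0.02) were not called.

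Of 11 brakes on the pathway 4 were higher and 1 lower in NCI-H727 (45.5% called). They were the phosphatase PTPN11, TRIM6 (0.80), IRF2 (0.68), USP18, which removes ISG15 from proteins and binds IFNAR2 (0.66), and PIAS3 (-0.62). Of 19 nucleic acid sensing genes past the filter 5 were higher and 5 lower (52.6% called, beside 48.3% of all genes). 3 of the 19 passed through 1 line, TLR7 through NCI-H727 and IFI16 and STING1 through QGP1, which favours a higher value in that line. IFI16, a nuclear DNA sensor, read 3.18 and 3.36 in DAXX-KD and control NCI-H727, against 9.38 and 9.64 in QGP1 (-6.24, SE 0.13). The editing enzyme ADAR (-1.32), the adaptor STING1 (-0.99) and TRIM25, which ubiquitinates RIG-I (-0.74), were lower too. MAVS, the adaptor of RIGI and IFIH1 (0.97), and the kinase IKBKE (0.93) were higher. IRF3 was not called (0.38).

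Of 39 other interferon-stimulated genes past the filter 19 were higher and 6 lower in NCI-H727, 64.1% called where 48.3% of all genes were. In 3 of the 39 (GBP2, GBP3 and PARP14) only the mean of the NCI-H727 arrays reached the filter level, which favours a higher value there. GBP3 read 9.59 and 9.45 in DAXX-KD and control NCI-H727, against 4.05 and 3.35 in QGP1, and GBP2 read 7.82 and 8.44 in DAXX-KD and control NCI-H727, against 4.28 and 3.75 in QGP1, so both relatives of GBP1 were high in NCI-H727 and under the filter level in QGP1. GBP4 and GBP5 were under the filter. PARP14 (2.81) and BATF2 (2.10) were higher in NCI-H727. LGALS3BP (-1.62) and UBE2L6, the conjugating enzyme for ISG15 (-1.89), were lower there, as ISG15 was. UBE2L6 was the 1 gene of these lists at least 2-fold apart after knockdown, at 6.31 in DAXX-KD and 5.18 in control NCI-H727 (2.19-fold higher), against 7.64 and 7.64 in QGP1.

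Antigen presentation genes also split, with 5 higher and 11 lower in NCI-H727 of 22 past the filter (72.7% called, beside 48.3% of all genes). 1 of the 22, HLA-DPB1, passed through QGP1 alone, which favours a lower value in NCI-H727. PSMB8 (3.06) and PSMB9 (1.15), catalytic subunits of the immunoproteasome, and the class II gene HLA-DRB1 (1.34) were higher. HLA-F (-1.90) and the peptide trimming enzymes ERAP2 (-1.10) and ERAP1 (-1.09) were lower. HLA probe sets can bind transcripts of related HLA genes, and alleles can differ between lines, so these values are uncertain. In the limma fit for the knockdown 0 genes of any of these lists passed at an adjusted p under 0.05. At an unadjusted p under 0.05 in limma 6.92% of all genes passed. Beside this share stood 1 of 9 receptor and signalling genes, 1 of 11 brakes and 0 of 19 nucleic acid sensing genes. Of the other interferon-stimulated genes 1 of 39 passed, and of the antigen presentation genes 1 of 22.

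PTPRC (CD45), the defining marker of leukocytes, in which many of these genes are best known, was under the filter, at most 3.68 in the 4 arrays. Of the 5 genes of the leukocyte list past the filter 1 was called between lines (20%, beside 48.3% of all genes). It was LYZ, a lysozyme gene also expressed by epithelia (1.91). CD3E, CD14, ITGAM and the neural adhesion gene NCAM2 lay between 4.73 and 5.59, near the filter level of 4.85, so passing it does not show that they were expressed. Of 5 fibroblast and endothelial markers past the filter 1 was called (20%), PECAM1 (-0.73), which was 2.08-fold higher in DAXX-KD than in control QGP1. Their part in the differences of the members was not tested.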

How the data were processed

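Per the submitters' processing notes, the authors made the deposited log2 values with RMA in affy 1.40.0 under R 3.0.3: background correction, quantile normalization and probe set summary. The table held 54613 probe sets. 41091 had 1 symbol in the platform annotation, 1801 several and 11721 none; the last 2 kinds were left out. A gene was its probe set with the highest mean, giving 19775 genes, of which 14648 passed the filter at the 40th percentile of the probe set means. One limma fit (limma 3.58.1, R 4.3.3) of cell line and treatment over all these genes gave both comparisons, two-sided, with Benjamini-Hochberg adjustment over all genes at 0.05. It had 1 residual and 4.18 prior degrees of freedom. P-values measure only the spread between these 4 arrays, whose number limits the precision. Within a line there was 1 array per condition and no test. Values in all 4 arrays were given for members called between lines, members at least 1.5-fold apart after knockdown and members shown with a sequence, and of each other list at most the 6 called genes with the largest differences were named; MX1, IRF9 and genes given by range were named beyond this rule. The members and lists were chosen with earlier results of these data known. Promoter sequences are RefSeq, GRCh38.p14. Alternatives changed the probe set rule, the filter, the normalization, the prior and the terms, and left out each array.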

Additional observations from a re-analysis of the deposited data

Results flagged for a closer look

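GBP1 differed from control in opposite directions in the 2 lines by more than 1.5-fold, at -1.09 in NCI-H727 and 1.17 in QGP1 on the log2 scale. The difference between lines was not tested, since each value rests on 1 array per condition. In NCI-H727 all 3 probe sets past the filter were lower in DAXX-KD. In QGP1 both arrays were under the filter level and the other 2 of these probe sets were lower. The probe set that stood for GBP1 has the x_at suffix, which marks possible binding of other transcripts.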

How the results depend on the processing

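The counts between lines ranged from 8 to 12 higher and 4 to 8 lower in NCI-H727 over all alternatives run. Leaving out 1 array (with no treatment term) gave 8 to 11 higher and 4 to 6 lower: 4 lower without the QGP1 DAXX-KD array and 4 without the QGP1 control array, against 7. In limma 0 members passed for the knockdown under each of the 7 alternatives run. In NCI-H727 the 1 member 2-fold lower became 2 with no filter, by its construction, since DDX60 was then counted, 0 where probe sets of a gene were averaged, and 0 after a second quantile normalization. In QGP1 the 2 members 2-fold higher became 1 with the filter at the 60th percentile, 0 where probe sets were averaged, 0 without suffixed probe sets and 4 at 1.5-fold. GBP1 in QGP1 was -0.34 without suffixed probe sets, against 1.17, and 0.08 with the mean of its probe sets. The cause was not tested where none is named. Of 192 values of single members between lines under alternatives, 174 kept direction and call and 18 kept direction only. No paired analysis was possible because the labels give no replicate numbers, beyond the pairing of DAXX-KD with control within each cell line, which the limma fit already holds. Dim genes lie close to background, where RMA compresses differences.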
